A study of Homo sapiens with 6 samples.

Results

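Insulin and the insulin-like growth factors (IGFs) act on cells through a short relay of proteins, and 10 genes of that relay are described here in EndoC-βH1 cells, a human pancreatic β cell line. They are the receptor genes INSR and IGF1R, the docking protein genes IRS1, IRS2 and IRS4, the PI3 kinase regulatory subunit gene PIK3R1, the kinase genes AKT1 and AKT2, and the transcription factor genes FOXO1 and FOXO3. They were chosen by name for their place in the pathway, with earlier results of these data known, and all 10 were found among the 60671 gene identifiers of the count files. Ligand binding activates the tyrosine kinase of the receptor, which phosphorylates the IRS docking proteins, and these recruit PI3 kinase to the membrane. The lipid made by PI3 kinase brings AKT to the membrane for activation, and active AKT phosphorylates FOXO factors, which then leave the nucleus and no longer drive their target genes. β cells both secrete insulin and carry this pathway, which is known for its part in β cell growth and survival.

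RNA-seq was performed on 3 samples treated with DMSO, the vehicle, and 3 treated with 1 µM AZD7762, an inhibitor of the checkpoint kinases CHEK1 and CHEK2. The cells of both groups were labelled wild type, were starved for 1 h in 0.5 mM glucose and were then stimulated for 1 h, with DMSO or AZD7762 present in both steps. Stimulation was at a glucose concentration of 0.5 or 20 mM, and the labels do not say which applies to each library. All samples are of 1 cell line, and the labels do not say whether replicates came from separate cultures, so the p-values measure the spread between these samples, which may be technical.

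The libraries held between 20486391 and 29402440 counts on genes. After scaling, all 14 β cell markers examined passed the filter on low counts. Their summed level was between 7951 and 9130 CPM (counts of a gene relative to the scaled total of its library) with DMSO. It was between 8691 and 9262 CPM with AZD7762. Of the 14, 1 was called higher (adjusted p under 0.05), MAFA, where 0.357% of all genes tested were. An unadjusted p under 0.05 in edgeR's test was found for 3 higher and 1 lower, against 9.68% of all genes tested. The groups did not overlap in 6 of the 14, against 15.0% of all genes tested. The δ cell markers SST and HHEX summed to 219 to 249 CPM with DMSO and 258 to 284 CPM with AZD7762, with a log2 difference of 0.24 for SST and -0.19 for HHEX, neither of them called, and their part in the differences given here was not tested. The acinar markers summed to 21.0 to 22.6 and 24.7 to 27.5 CPM, all of it from CPA1, whereas PRSS1 and CELA3A were at 0 in every library, and their part was not tested either. The sums overlapped between DMSO and AZD7762 for α cell markers (68.8 to 85.3 and 71.8 to 80.1 CPM) and ductal markers (24.4 to 30.0 and 25.6 to 28.9). They also overlapped for fibroblast markers (13.1 to 18.6 and 14.8 to 18.4 CPM). Single markers could differ more than these sums. The 2 tested fibroblast markers had log2 differences of 0.06 and 0.58, and the groups did not overlap for 1 of them. The 4 tested α cell markers ran from -0.04 to 0.25, also with 1 without overlap. None of these was called, and their part was not tested.

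AZD7762 was compared with DMSO to find whether the treatment had moved the transcripts of the insulin and IGF receptor pathway during the secretion experiment. Of the 10 genes, 9 were detected in every library and passed the filter on low counts, and IRS4 had no count in any. With edgeR's quasi-likelihood test, none of the 9 was called, which required an adjusted p under 0.05, and DESeq2's Wald test and edgeR's likelihood ratio test also called 0. Among all 17649 genes tested, 0.708% were called. At an unadjusted p under 0.05 in edgeR's test there was 1 of the 9, FOXO1, against 9.68% of all genes tested. In none of the 9 did the AZD7762 samples lie wholly above or below the DMSO samples, a separation that held for 15.0% of all genes tested. The log2 fold changes of AZD7762 against DMSO, also called log2 changes here, ran from -0.25 to 0.18 with a median of -0.02, beside a median of 0.01 over all genes, and 4 were positive and 5 negative. These are bulk samples, in which fewer cells expressing a gene and less of its RNA per cell cannot be told apart.

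**Figure D1:**
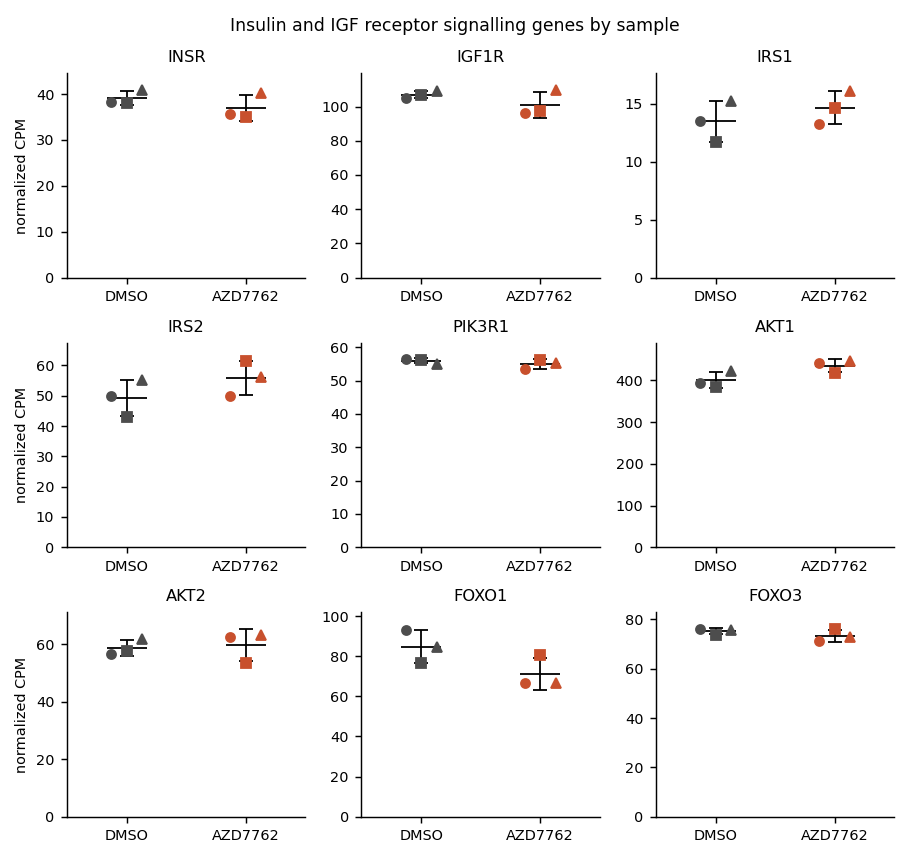
Normalized CPM (y axis, from 0) of the 9 detected genes in each DMSO (grey) and AZD7762 (red) sample, with replicates 1, 2 and 3 as circle, square and triangle and the bars as mean ± SD (n = 3). The groups overlap in every panel, with the largest relative shift of the means in FOXO1, from 84.6 to 71.2 CPM.

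INSR (ENSG00000171105; GRCh37, chromosome 19, 7112266 to 7294425) encodes the insulin receptor. It had 38.2, 38.1 and 40.9 CPM in DMSO replicates 1, 2 and 3, and 35.5, 35.0 and 40.3 CPM in AZD7762 replicates 1, 2 and 3. AZD7762 replicate 3 lay within the DMSO range and replicates 1 and 2 lay below it. The means were 39.1 ± 1.57 and 36.9 ± 2.92 CPM (SD, n = 3 in each group), a log2 change of -0.08 with a 95% interval from -0.24 to 0.08 (adjusted p = 0.782, edgeR). The counts are per gene and do not separate the receptor isoforms made by alternative splicing.

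IGF1R (ENSG00000140443; chromosome 15, 99191768 to 99507759) encodes the receptor for the IGFs. Its levels were 105, 107 and 109 CPM with DMSO and 96.3, 97.2 and 109.8 CPM with AZD7762. Again AZD7762 replicates 1 and 2 were below all DMSO samples, and replicate 3 was above them. The log2 fold change was -0.08, with an interval from -0.22 to 0.06 (adjusted p = 0.744, edgeR). Without AZD7762 replicate 3, the log2 fold changes of INSR and IGF1R were -0.15 and -0.14, and neither was called.

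The IRS proteins carry the signal from both receptors. IRS2 (ENSG00000185950; chromosome 13, 110405042 to 110438930), known as the main docking protein of β cells, had 49.8, 43.0 and 55.1 CPM with DMSO and 50.0, 61.4 and 56.2 CPM with AZD7762. All AZD7762 samples were higher than 2 of the DMSO samples, and 1 of them was lower than DMSO replicate 3. The means were 49.3 ± 6.05 and 55.9 ± 5.70 CPM (SD, n = 3 in each group), and the log2 fold change was 0.18, with an interval from -0.03 to 0.39 (adjusted p = 0.584, edgeR). The value moved with single DMSO samples: it was 0.08 when DMSO replicate 2 was left out and 0.27 when DMSO replicate 3 was, without a call in either case.

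IRS1 (ENSG00000169047; chromosome 2, 227596028 to 227664536) had 13.5, 11.7 and 15.2 CPM with DMSO and 13.2, 14.6 and 16.1 CPM with AZD7762. As for IRS2, DMSO replicate 2 was the lowest of the 6 samples. The log2 fold change was 0.12, with an interval from -0.12 to 0.37 (adjusted p = 0.781, edgeR), and it was 0.02 when DMSO replicate 2 was left out and 0.22 when DMSO replicate 3 was. IRS4 (ENSG00000133124; chromosome X, 107963176 to 107979793) had a count of 0 in all 6 libraries, where 3 counts, the limit that a count of 0 allows, correspond to between 0.102 and 0.144 CPM. This limit covers counting error only.

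PIK3R1 (ENSG00000145675; chromosome 5, 67511568 to 67597649) encodes the regulatory subunit p85α and its shorter forms, which hold the catalytic subunit of PI3 kinase. It had 56.4, 56.2 and 55.0 CPM with DMSO and 53.4, 56.3 and 55.2 CPM with AZD7762. It varied least among the genes with DMSO, with an SD of 0.754 CPM around a mean of 55.9 (n = 3). Its log2 fold change was -0.02, with an interval from -0.15 to 0.10 (adjusted p = 0.923, edgeR), and the sign turned after correction for GC content and gene length (0.03).

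AKT1 (ENSG00000142208; chromosome 14, 105235686 to 105262088) encodes the AKT kinase linked above all to growth and survival. It had 394, 385 and 423 CPM with DMSO and 442, 419 and 447 CPM with AZD7762. Of the AZD7762 samples, 2 were above all DMSO samples, and replicate 2 lay just below DMSO replicate 3. The means were 400.5 ± 19.7 and 436 ± 14.8 CPM (SD, n = 3 in each group), a log2 change of 0.12 with an interval from -0.01 to 0.25 (adjusted p = 0.558, edgeR). The exons of AKT1 had a GC content of 62.4%, the highest of the 10 genes, and after correction for GC content and gene length the log2 fold change was 0.07 (adjusted p = 0.697, edgeR). An opposite-strand gene without any count covers 6.05% of its exons.

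AKT2 (ENSG00000105221; chromosome 19, 40736224 to 40791443), the AKT gene best known for glucose uptake in muscle and fat, had 56.8, 57.6 and 62.0 CPM with DMSO. With AZD7762 it had 62.7, 53.5 and 63.3 CPM, so that these samples held both the lowest and the highest value. The log2 fold change was 0.03, with an interval from -0.14 to 0.19 (adjusted p = 0.939, edgeR), and its sign depended on the scaling, being -0.0093 with library totals alone.

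FOXO1 (ENSG00000150907; chromosome 13, 41129804 to 41240778) encodes the FOXO factor known for restraining β cell proliferation and for preserving β cell identity under stress. Its levels were 92.8, 76.4 and 84.6 CPM with DMSO and 66.8, 80.4 and 66.5 CPM with AZD7762. AZD7762 replicates 1 and 3 were below all DMSO samples, and replicate 2 was above DMSO replicate 2. The means were 84.6 ± 8.22 and 71.2 ± 7.92 CPM (SD, n = 3 in each group), a log2 change of -0.25 (standard error 0.0882) with an interval from -0.44 to -0.06. The unadjusted p was 0.0148, and after adjustment over all genes it was 0.364 (edgeR). This change was larger in size than that of 85.0% of the genes tested. It ranged from -0.35 without AZD7762 replicate 2 to -0.18 without DMSO replicate 1, and the lowest adjusted p, 0.0585, came without a filter on low counts. The annotation places a second identifier over 22.7% of the exon length of FOXO1 on the same strand. That identifier had no count in any library, and reads that fall on both genes may have been left uncounted.

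FOXO3 (ENSG00000118689; chromosome 6, 108881038 to 109005977), a second FOXO factor phosphorylated by AKT, had 76.2, 73.7 and 75.6 CPM with DMSO and 71.1, 75.9 and 72.8 CPM with AZD7762. Its groups overlapped, and its log2 fold change was -0.04, with an interval from -0.16 to 0.09 (adjusted p = 0.884, edgeR). The difference between the log2 fold changes of FOXO1 and FOXO3 was not tested.

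**Figure D2:**
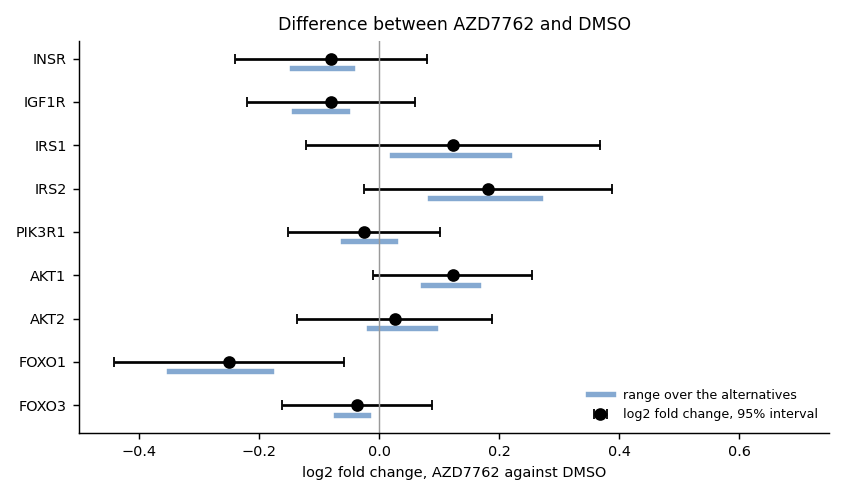
Log2 fold change of AZD7762 against DMSO (x axis) for the 9 detected genes, with 95% intervals from edgeR's fit in black and the range over 15 alternative analyses in blue. The interval of FOXO1 (-0.44 to -0.06) is the 1 that lies wholly on a side of 0, before adjustment over all genes.

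To compare levels between genes, CPM were divided by the length of the canonical transcript in kilobases. With DMSO, AKT1 stood highest at 135 ± 6.65 CPM per kb (SD, n = 3). FOXO1 followed at 14.6 ± 1.42, AKT2 at 11.2 ± 0.531 and FOXO3 at 10.3 ± 0.174 CPM per kb. IGF1R had 8.73 ± 0.171, PIK3R1 8.01 ± 0.108, IRS2 6.05 ± 0.742, INSR 4.13 ± 0.166 and IRS1 1.38 ± 0.183 CPM per kb. Each gene lay above the next in all 3 DMSO samples with no overlap, and the means kept this order with AZD7762. Over all 6 samples, FOXO1 exceeded AKT2 in 4, AKT2 exceeded FOXO3 in 5 and IGF1R exceeded PIK3R1 in 5, so these neighbours were the least apart.

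The order of some genes depended on the length used. With the length of all annotated exons in place of the canonical transcript, a choice made after the files were seen, AKT1 was at 36.6 CPM per kb, AKT2 at 3.70 and PIK3R1 at 3.42. AKT2 then came sixth and PIK3R1 eighth of the 9. AKT1 and FOXO1 stayed first and second, and IRS1 stayed last, on both scales. IRS2 exceeded INSR on both as well.

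**Figure D3:**
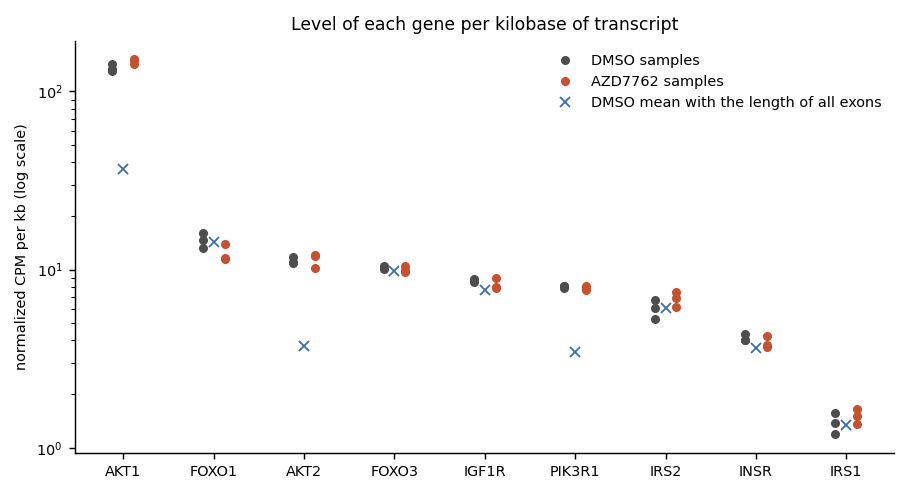
Level of each gene in normalized CPM per kb of canonical transcript (y axis, log scale) in the DMSO (grey) and AZD7762 (red) samples, ordered by the DMSO mean, with blue crosses for the DMSO mean per kb of all exons. AKT1 lies far above the rest, at 135 CPM per kb, and IRS1 lies lowest, at 1.38.

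Ratios between related genes were taken within each sample, where differences in scaling cancel. The ratio of IGF1R to INSR per kb stayed between 2.06 and 2.17 in all 6 samples. Its mean was 2.12 in both groups, with an SD of 0.0547 for DMSO and 0.0277 for AZD7762 (n = 3 in each group). The ratio of IRS2 to IRS1 was 4.41, 4.42 and 4.33 with DMSO and 4.54, 5.03 and 4.18 with AZD7762. The AZD7762 samples enclosed the DMSO range and varied more, with an SD of 0.422 against 0.0494. The ratio of FOXO1 to FOXO3 lay between 1.31 and 1.54 with DMSO and between 1.15 and 1.34 with AZD7762, and AZD7762 replicate 2 lay inside the DMSO range.

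The ratio of AKT1 to AKT2 was higher in each AZD7762 sample than in any DMSO sample. It was 12.3, 11.9 and 12.1 with DMSO and 12.5, 13.9 and 12.5 with AZD7762, so that the groups did not overlap. This was 1 of 4 ratios given here, it is a description without a test, and single genes were separated in this way in 15.0% of all genes tested. The size of the ratio depends on the length used, since per kb of all exons AKT1 and AKT2 had 36.6 and 3.70 CPM with DMSO.

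Other genes of the pathway were examined as a list of 90, sorted by role. Of these, 82 were tested and 1 was called, SGK1, where 0.357% of all genes tested were called higher and 0.351% lower with AZD7762. The median log2 fold change of the 82 was -0.00311, with 38 positive and 44 negative, and 7 had an unadjusted p under 0.05, which 9.68% of all genes tested had. The groups did not overlap in 12 of the 82, against 15.0% of all genes tested. SGK1 encodes a kinase that, like AKT, is activated downstream of PI3 kinase and phosphorylates FOXO factors, and its transcript is known to respond rapidly to many stimuli. It had 3.62, 3.90 and 3.55 CPM with DMSO and 8.07, 7.84 and 7.88 CPM with AZD7762. Every AZD7762 sample was above every DMSO sample, and the log2 change was 1.10 with a standard error of 0.112 (adjusted p = 0.000187, edgeR). Among the other kinases of this level, PDPK1, which activates AKT, had 53.6 ± 0.849 and 48.7 ± 2.53 CPM (SD, n = 3 in each group), a log2 change of -0.14 (adjusted p = 0.505, edgeR). GSK3A, inhibited by AKT, had the highest level per kb of them with DMSO, and its log2 fold change was 0.11 (adjusted p = 0.573, edgeR).

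None of the 11 tested ligands and binding proteins was called, where 0.708% of all genes tested were. With so low a share, the lack of a call says little about a group of this size, here and for the roles below. INS, which had the highest level per kb among the 11, had a log2 change of 0.16 (adjusted p = 0.805, edgeR). It shares 37.5% of its exon length with the read-through gene INS-IGF2. Its value was 0.02 when DMSO replicate 2 was left out and 0.42 when DMSO replicate 3 was, without a call in either case. IGFBP2, an IGF binding protein, had one of 0.22 (adjusted p = 0.449), and STC2, which inhibits the protease that cleaves IGF binding proteins, one of -0.16 (adjusted p = 0.541, edgeR). IGF1 had no count in any library, and 82.5% of its exon length is overlapped by another gene in the opposite direction. None of 3 further receptors was called. IGF2R, which removes IGF2 from the cell surface, was at 488 ± 19.6 and 498 ± 35.9 CPM (SD, n = 3 in each group). SORCS1, a sorting receptor, had only 7 to 17 counts per library. Its log2 change was -0.30, with a wide interval from -1.06 to 0.47 (adjusted p = 0.840, edgeR).

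Adaptors and the Ras branch had 0 of 15 called, with GAB1 at 0.16, SH2B1 at 0.13 and the phosphatase gene PTPN11 at -0.07 on the log2 scale. PI3 kinase subunits had 0 of 8 called. PIK3CA, a catalytic subunit, had a log2 change of -0.15 (adjusted p = 0.555, edgeR) and 19.8% of its exon length is overlapped by a gene in the opposite direction, and PIK3C2A had one of -0.09. PIK3R2, a second regulatory subunit, had at most 0.159 CPM in a sample. Of its exon length, 76.4% is shared with another identifier on the same strand, so that its reads may have been left uncounted. The mTOR complexes and their effectors had 0 of 15 called, with log2 fold changes from -0.41 to 0.20. EIF4EBP1, a repressor of translation controlled by mTOR, had 61.7 ± 1.60 and 71.0 ± 7.21 CPM (SD, n = 3 in each group), a log2 change of 0.20 (adjusted p = 0.385, edgeR), and RPS6KB2 had one of 0.15 (adjusted p = 0.482, edgeR).

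Genes that restrain the pathway had 0 of 16 called, with log2 fold changes from -0.61 to 0.14, 4 of them positive and 12 negative. Most were small: the median was -0.03, beside 0.01 over all genes tested. The median size without regard to sign was 0.04, below the 0.09 of all genes tested. The smallest unadjusted p were those of SOCS2 and SOCS7, of the family of cytokine signalling suppressors, and not that of the gene at -0.61. Their log2 fold changes were -0.26 and -0.22 (adjusted p = 0.324 and 0.339, edgeR). INPPL1, a lipid phosphatase, had one of -0.03. The remaining FOXO genes, FOXO4 and FOXO6, had log2 fold changes of 0.16 and 0.11, and of 4 AKT substrates, TBC1D4 and PFKFB2 had -0.04 and -0.13, with no call among them.

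**Figure D4:**
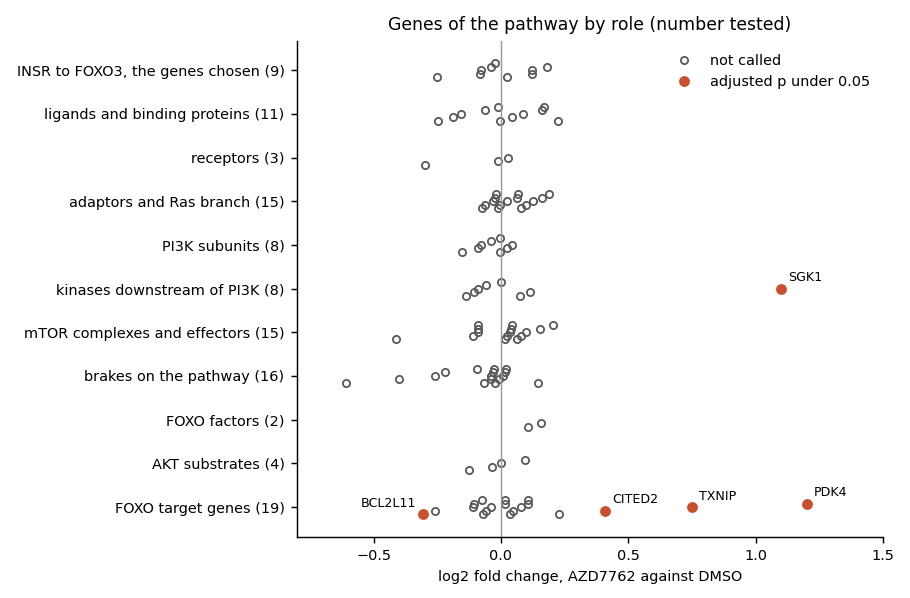
Log2 fold change of AZD7762 against DMSO (x axis) for the tested genes of each role (rows, number tested in brackets), with called genes filled in red. SGK1 (1.10) stands apart among the pathway genes, and the called FOXO targets lie on both sides of 0.

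Since AKT acts on FOXO proteins and not on their transcripts, known FOXO target genes were also examined. Of 29 listed, 28 were matched to an identifier and 23 were tested, 4 of which are INSR, IRS2, FOXO1 and FOXO3 themselves. Of the 23, 4 were called, 3 higher and 1 lower, where 0.708% of all genes tested were called, 0.357% higher and 0.351% lower. An unadjusted p under 0.05 was found for 7 of the 23 and for 9.68% of all genes tested. This list was chosen with earlier results of these data known, so its counts are a description and not independent evidence. The median log2 fold change of the 23 was 0.02, with 12 positive and 11 negative. IGFBP1, PCK1 and G6PC, the FOXO targets best known from liver, were not tested, and PCK1 and G6PC had no count.

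PDK4 (ENSG00000004799; chromosome 7, 95212811 to 95225828), which encodes a kinase that inhibits pyruvate dehydrogenase, had 267, 258 and 259.7 CPM with DMSO. With AZD7762 it had 501, 701 and 601 CPM, all well above the DMSO samples. The log2 change was 1.20 with a standard error of 0.0982 (adjusted p = 2.62e-05, edgeR). TXNIP, whose product binds thioredoxin, rose from 5.68 ± 0.967 to 9.63 ± 0.379 CPM (SD, n = 3 in each group), a log2 change of 0.75 (adjusted p = 0.0127, edgeR). CITED2, a transcriptional coregulator, rose from 57.3 ± 1.98 to 76.0 ± 4.80 CPM, a log2 change of 0.41 (adjusted p = 0.00801, edgeR).

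BCL2L11, which encodes the cell death protein BIM, fell from 91.2 ± 2.06 to 73.9 ± 3.78 CPM (SD, n = 3 in each group), a log2 change of -0.30 (adjusted p = 0.0391, edgeR). An antisense gene, MIR4435-2HG, overlaps 10.8% of its exon length, so that its counts may hold reads of both. PDK4 and SGK1 were called with each sample left out in turn, whereas BCL2L11 was called in none of these 6 fits, in which its adjusted p ran from 0.0516 to 0.211. CITED2 was not called without DMSO replicate 2 (adjusted p = 0.0699) or AZD7762 replicate 1 (0.0741), nor TXNIP without AZD7762 replicate 1 (0.133) or replicate 2 (0.0618). Without AZD7762 replicate 1, PDK4 was the 1 FOXO target left.

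**Figure D5:**
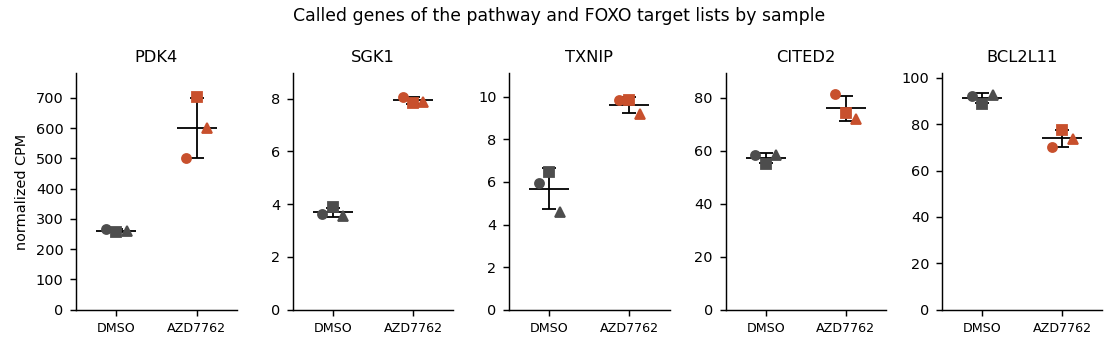
Normalized CPM (y axis, from 0) of the 5 called genes of the pathway and FOXO target lists in each DMSO (grey) and AZD7762 (red) sample, with replicates 1, 2 and 3 as circle, square and triangle and the bars as mean ± SD (n = 3). PDK4 rose from between 258 and 267 CPM to between 501 and 701 CPM, and BCL2L11 is the 1 that fell.

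The promoters of these genes were searched for the FOXO element GTAAACA on either strand, in the 250 bases before and 50 after each RefSeq transcript start of GRCh38. Promoter sequences were found for all 10 genes of the relay, with 19 starts among them, and none held the element, which says only that these letters are not in these windows. It occurred in 3.42% of the 35116 promoters of all genes. In the FOXO target list, 38 promoters from 23 of the genes were searched, and 3 held it. Among the 7 promoters of the 4 called targets, 2 held it, 1 each of TXNIP and BCL2L11, and no window of PDK4 or CITED2 did. Both matches are shown because they lie beside genes that moved in opposite directions. The windows are chr1:145996652-145996748 on the minus strand for TXNIP, with the element beginning 124 bases before the start, and chr2:111120664-111120742 on the plus strand for BCL2L11, where it begins 223 bases before the start, and capitals mark the element.
TXNIP: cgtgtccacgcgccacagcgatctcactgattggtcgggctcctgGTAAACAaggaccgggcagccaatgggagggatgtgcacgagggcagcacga
BCL2L11: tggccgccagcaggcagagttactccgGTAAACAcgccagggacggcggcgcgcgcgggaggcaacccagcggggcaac
A match describes the letters of the sequence and is not evidence of binding in these cells.

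Last, the genes whose profile over the 6 samples lay nearest to those of INSR, IGF1R and IRS2 were found by the root mean square difference of centred log2 CPM, among 13903 other genes. Nearest to INSR were ABCC1, RAD52 and SEPTIN7P14, with differences of 0.0215 to 0.0224, against a spread of INSR itself of 0.0834. Nearest to IGF1R were R3HDM2 (0.0158), LINC00205 and ABCC1, so that ABCC1 was near to both receptors. Nearest to IRS2 were MEF2D (0.0365), PCDHA5 and SHB, against a spread of IRS2 of 0.162. With 6 samples and small spreads, such likeness describes these libraries, and it was not tested.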

How the data were processed

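Libraries of polyadenylated RNA were prepared with either of 2 Illumina kits, 1 of them stranded, without a statement of which was used for which library. The authors checked reads with FastQC 0.10.1, trimmed them with cutadapt 1.18, aligned them to GRCh37 and counted them with HTSeq-count. The aligner, the strand setting and the annotation release are not given in the sources used here, so genes that overlap on either strand are uncertain. The deposited values are raw counts, 1 file per sample, of which all 60671 identifiers were read. They hold no rows for unassigned reads.

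Symbols, GRCh37 positions, lengths and GC content came from GENCODE 44 lifted to GRCh37, which may not be the release behind the files and lists 58646 of their identifiers. Analysis used edgeR 4.0.16 in R 4.3.3, whose filterByExpr left 17649 genes, libraries were scaled with TMM, and the groups, taken from the sample titles, were compared with the quasi-likelihood test and Benjamini-Hochberg adjustment over all genes tested, at 0.05 and two-sided. Standard errors were derived from the F statistic and the log2 fold change, and 95% intervals use the moderated t distribution. On simulated counts with 200 of 17391 genes changed 2-fold, the test called 83.5% of these and 13 others. Changes as small as those of the 9 tested genes of the relay, from -0.25 to 0.18 on the log2 scale, were not simulated.

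The 10 genes, the lists of pathway genes and FOXO targets and the tests were chosen with earlier results of these data known. Genes named besides these are the called genes of each list, up to 2 per role with the smallest unadjusted p and 1 with the highest level per kb in DMSO, and 3 nearest genes each for INSR, IGF1R and IRS2. IGF1, PIK3R2, IGFBP1, PCK1, G6PC and, of the list of cell type markers, MAFA, SST, HHEX, CPA1, PRSS1 and CELA3A are named as well, after their values were seen. SOD2 and PECAM1 were not matched. A further ratio between genes was computed and is not reported here. Alternatives were other scaling, other filters, DESeq2 1.42.0, the likelihood ratio test, the replicate number as a block, correction for trends with GC content and gene length in each library (99.4% of tested genes had both), and leaving out each sample. The chi-square per gene between replicates of a group, from 4.84 to 9.59, exceeded sampling noise.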

Additional observations from a re-analysis of the deposited data

How the results depend on the processing

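None of the 9 tested genes of the relay was called under any of the 15 alternatives, and the call of SGK1 held in each. Among 35 named genes, 497 of 523 alternative values kept their direction and side of the threshold. Most of these genes were not called to begin with and every alternative reuses the same samples, so such agreement is easily met. Of the rest, 14 values turned in direction, 2 gained a call and 10 lost one, all 10 of BCL2L11, CITED2 or TXNIP. The number of all genes called, 125, was 330 without a filter, 267 with the likelihood ratio test, 227 after correction for GC content and gene length, and between 77 (without AZD7762 replicate 1) and 168 with 1 sample left out. The number of FOXO targets called, 4, was between 1 (without AZD7762 replicate 1) and 3 with 1 sample left out, and 2 without DMSO replicate 2 or AZD7762 replicate 2. The deviations of same-numbered samples had correlations of 0.0533, 0.124 and 0.210, all positive. Other pairs had correlations from -0.253 to 0.175, and DMSO replicate 1 was nearest to AZD7762 replicate 2. These values do not settle whether same-numbered samples were paired. With the replicate number as a block, 378 genes were called, and 575 with the block and that correction, where the pathway list had 3 called, IGFBP2 and SOCS7 besides SGK1. The cause was not tested. The sign of AKT2 turned with library totals alone (-0.0093), after correction for GC content and gene length (-0.0013) and with the block added to that (-0.0023), and ran from -0.018 to 0.093 with 1 sample left out. PIK3R1 turned after correction for GC content and gene length (0.026) and with the block added (0.027). IGF2R turned with library totals alone (-0.0067). With 1 sample left out, the log2 fold changes ran from -0.017 to 0.076 for IGF2R, from -0.026 to 0.21 for FOXO6 and from -0.069 to 0.038 for INPPL1. The tested genes of the relay had between 308 and 11637 counts per library, and IRS1, with the fewest, had the largest standard error.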
